A study of Homo sapiens with 4 samples.

Results

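Histones are the proteins around which nuclear DNA is wrapped. Core histones H2A, H2B, H3 and H4 form the nucleosome, and the linker histone H1 binds the DNA between nucleosomes. Most of their genes lie in clusters, are transcribed in S phase and give mRNAs that end in a conserved stem-loop in place of a poly(A) tail, whereas the genes of the replacement histones stand alone, have mostly polyadenylated mRNAs and are expressed outside S phase too. The genes described here are the rows of the deposited table that carry a cluster histone symbol (HIST1 to HIST4 followed by H1 to H4) or the symbol H2AFX, H2AFZ, H2AFV, H2AFY, H3F3A, H3F3B or H1F0. The rule used no measured value and found 77 of 35211 genes, of which 7 are replacement and 70 are cluster genes. By GENCODE release 29, 61 of the 70 are protein-coding and 9 are pseudogenes. The HIST1 group on chromosome 6 held 49 of them, HIST2 on chromosome 1 held 16, HIST3 on chromosome 1 held 4 and HIST4 on chromosome 12 held 1. Another chromosome holds 1 of those given to HIST1, a pseudogene on chromosome 13.

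Total RNA depleted of ribosomal RNA had been sequenced from DU145 and PC3, both established human prostate cancer cell lines. Each line carried either a negative control plasmid or a plasmid meant to overexpress circ0003553, a circular RNA whose sample titles name RCAN3. There was 1 library for each of the 4 combinations, so each plasmid and each line was represented by 2 libraries, and nothing in the labels says whether they came from separate cultures. No 2 libraries shared both line and plasmid, so spread between replicates could not be measured. P-values therefore measure only how far these libraries depart from adding a line term and a plasmid term, moderated across genes. The labels give no untransfected cells, time after transfection or clone.

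Library totals ran from 33438509 to 39488890 counts. Wherever 4 values follow a gene they stand in the order DU145 control, DU145 circ0003553, PC3 control, PC3 circ0003553. RCAN3 had 639, 816, 1212 and 3798 counts, in a row that does not separate linear from circular RNA. Of 4 epithelial markers, KRT8, KRT18 and EPCAM had at least 2732 counts in every library and CDH1 had 4821, 2478, 84 and 108 (log2 -5.06 ± 0.18 in PC3), while the leukocyte marker PTPRC and the fibroblast marker DCN had at most 2. CTNNA1, known to be lost in PC3, had 15074, 15131, 139 and 212 counts. COL1A1 (124 to 1519 counts) and PECAM1 (10 to 595 counts), listed as markers of fibroblasts and endothelium, were both higher in PC3, and the endothelial marker VWF had at most 14. Their part in the results below was not tested. Low counts were mostly even, 70.3% to 75.3% of values from 1 to 20 over all genes and 82.4% to 88.9% among the histone genes, as when a read pair counts as 2. Intervals from counts are therefore too narrow, and those from halved counts are given where it matters.

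The histone stem-loop is bound by SLBP, which with the U7 snRNP directs cleavage of the pre-mRNA a few bases downstream. The deposited gene models were searched for it in GENCODE transcripts, because a model that runs past the stem-loop also collects reads from longer transcripts, and one that stops at the stop codon collects none from the stem-loop. A stem-loop of 16 bases was found in 36 models, in 7 forms. The forms are shown 5′ to 3′ as DNA letters of the transcript strand, with the loop in capitals, because the stem of the H4 genes differs from that of the others.
Form of 18 genes for H2A, H2B and H3: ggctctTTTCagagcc
Form of 5 genes for H2B and H3: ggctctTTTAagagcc
Form of 5 H4 genes: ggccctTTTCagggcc
Form of 3 H4 genes: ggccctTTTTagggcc
Form of 3 genes for H2A and H2B: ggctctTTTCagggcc
Form of HIST1H3E alone: ggctctTCTCagagcc
Form of H2AFX alone: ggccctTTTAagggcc
All 8 H4 genes among these had the stem ggccct, and H2AFX, a replacement histone known to give both stem-loop and polyadenylated mRNA, was the only other gene with it. Of the 61 coding cluster genes, 30 models ran more than 20 bases past the stem-loop, 2 ended within 20 bases of it, 4 had untranslated sequence and no stem-loop, and 25 held coding sequence only. In the first set 22 of 30 genes passed the filter on low counts, with a median of 81 counts summed over the 4 libraries across all 30. In the coding-only set 7 of 25 passed, with a median of 22 counts. The same split appeared by structure: 11 of 13 genes with more than 1 exon block passed the filter (median 211 counts over the 13), against 20 of 48 with 1 block (median 28 counts over the 48). Longer models can collect more reads, and no test was made of these medians.

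Upstream sequences came from the RefSeq promoter table (GRCh38.p14), which held 59 of the 77 genes; for 53 of them its start lay within 200 bases of the start in the deposited table. The windows of 250 bases before to 50 after the start were searched on both strands for TATAAA (the TATA box), CCAAT (bound by NF-Y), ATTTGCAT (the octamer bound by OCT1) and AAACACA (the AC box of H1 genes). Matches of different motifs can share letters at their ends, and a match only describes letters. The 150 bases before the start are shown for genes on which the results turn: the cluster genes HIST1H1C and HIST1H2BK with the highest levels, HIST1H2AC with a divergent partner, HIST2H2AA3 of the HIST2 block, HIST3H2A and HIST1H2BH, which were higher in PC3, and the replacement gene H2AFX. Capitals mark any of the 4 motifs on either strand, so ATTGG is CCAAT read from the other strand.
HIST1H1C, chr6:26056471-26056620, minus strand: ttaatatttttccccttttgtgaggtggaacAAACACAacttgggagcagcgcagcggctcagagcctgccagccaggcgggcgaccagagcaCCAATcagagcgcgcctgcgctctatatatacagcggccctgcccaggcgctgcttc
HIST1H2BK, chr6:27146859-27147008, minus strand: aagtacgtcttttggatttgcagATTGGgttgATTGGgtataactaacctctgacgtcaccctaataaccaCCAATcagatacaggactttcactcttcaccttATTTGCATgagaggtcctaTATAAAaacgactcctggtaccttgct
HIST1H2AC, chr6:26124022-26124171, plus strand: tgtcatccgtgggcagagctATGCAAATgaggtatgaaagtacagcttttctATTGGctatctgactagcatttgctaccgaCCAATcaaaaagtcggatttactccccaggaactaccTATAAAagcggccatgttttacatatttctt
HIST2H2AA3, chr1:149842751-149842900, minus strand: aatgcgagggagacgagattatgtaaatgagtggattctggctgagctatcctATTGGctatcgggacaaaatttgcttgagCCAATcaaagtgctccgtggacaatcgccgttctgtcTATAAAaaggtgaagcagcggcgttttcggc
HIST3H2A, chr1:228457874-228458023, minus strand: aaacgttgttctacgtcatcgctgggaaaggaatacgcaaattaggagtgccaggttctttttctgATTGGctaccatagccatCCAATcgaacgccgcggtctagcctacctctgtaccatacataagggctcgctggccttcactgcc
HIST1H2BH, chr6:26251464-26251613, plus strand: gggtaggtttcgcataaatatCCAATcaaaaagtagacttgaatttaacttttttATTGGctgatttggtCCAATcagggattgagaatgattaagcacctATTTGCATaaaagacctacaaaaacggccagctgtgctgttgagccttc
H2AFX, chr11:119095466-119095615, minus strand: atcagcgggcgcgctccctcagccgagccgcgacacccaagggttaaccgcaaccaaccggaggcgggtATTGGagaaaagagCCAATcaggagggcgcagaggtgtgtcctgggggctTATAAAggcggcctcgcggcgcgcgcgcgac
The octamer was in 10 of 15 H2A and 6 of 10 H2B promoters, in 1 of 13 for H3, and in none of 5 for H1 and 10 for H4, against 1.77% of 35116 RefSeq promoters. AAACACA was in 5 of 5 H1 promoters, against 5.64% of all. CCAAT was in every H1, H2A, H2B and H3 promoter matched (5, 15, 10 and 13) and in 2 of 10 for H4, against 34.6% of all. TATAAA was in 62.7% of the 59 and in 11.5% of all. These letters did not sort the cluster genes by level: of 12 coding cluster promoters whose genes had at least 200 counts over the 4 libraries, 3 held the octamer and 6 held TATAAA, and of 41 with fewer counts, 14 and 28 did.

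Most histone RNA counted in these libraries came from the 7 replacement genes. Levels are given as RPKM (counts scaled by gene model length and library total), the scale on which genes can be compared. All 7 replacement genes were among the 9 highest means over the 4 libraries, joined by HIST1H1C and HIST1H2BK. H1F0, a linker histone typical of differentiated and slowly dividing cells, had the highest mean at 103 RPKM, with 73.4, 98.1, 116 and 124 RPKM in the 4 libraries. H3F3B, one of the genes for the H3.3 protein placed at active chromatin, had 25.0, 25.7, 73.7 and 77.0 RPKM. Its partner H3F3A, which encodes the same protein, had 18.3, 14.8, 23.8 and 21.6 RPKM. H2AFZ and H2AFV, which encode the H2A.Z variants found at promoters, had 44.6, 39.9, 44.6 and 40.2 RPKM, and 28.2, 25.0, 31.9 and 27.5 RPKM. H2AFX, whose product is phosphorylated at DNA breaks, had 15.7, 17.6, 23.0 and 24.4 RPKM. H2AFY, the gene of the large variant macroH2A1, had 11.3, 12.6, 9.55 and 10.3 RPKM. H1F0, H3F3A, H3F3B and H2AFX were thus higher in both PC3 libraries than in both DU145 libraries, and H2AFY had lower values there. The 7 genes together reached 812, 888, 1303 and 1296 CPM (counts scaled to library size with TMM factors), against 165, 166, 51.2 and 57.5 CPM for the 70 cluster genes. In bulk RNA, fewer cells in S phase and less histone mRNA per cell cannot be told apart. How fully RNA without a poly(A) tail was captured was not tested. The share of cluster genes in the histone RNA of the cells is therefore unknown.

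**Figure D1:**
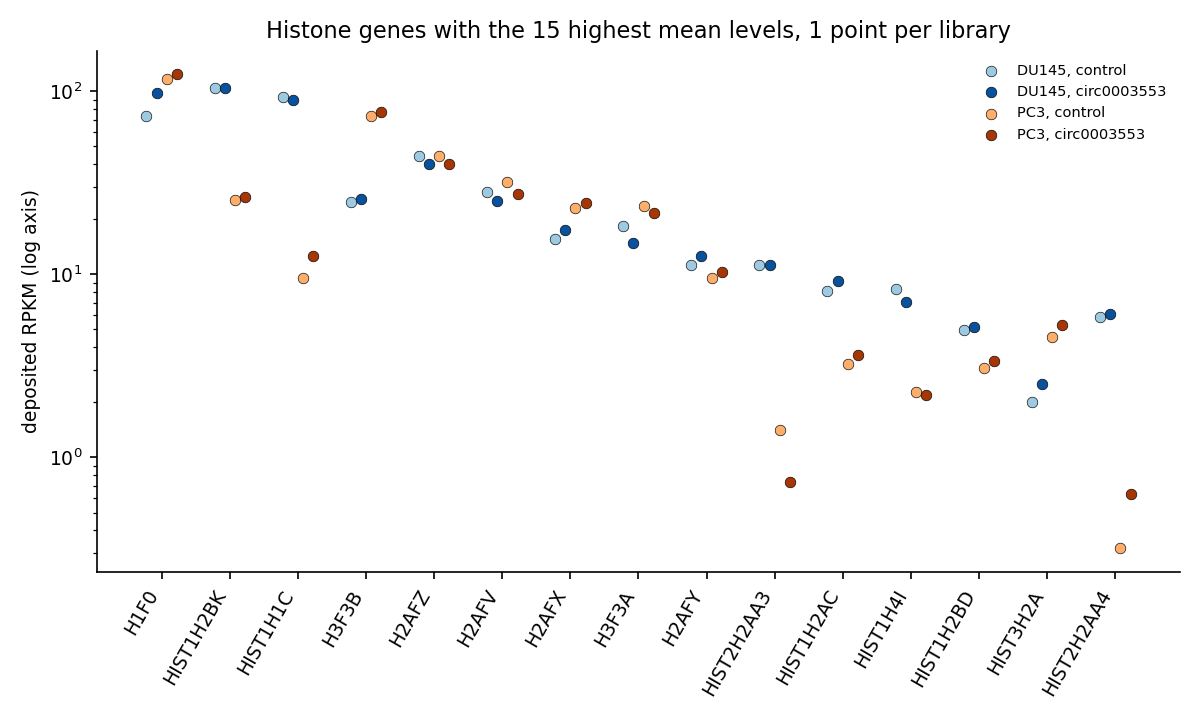
Deposited RPKM (log axis) of the 15 histone genes with the highest mean level, with 1 point per library and no error bars because each group held 1 library. HIST1H2BK and HIST1H1C lie between 89.5 and 104 RPKM in DU145 and at 9.50 to 26.3 RPKM in PC3, while H3F3B is higher in both PC3 libraries.

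Among cluster genes the counts were concentrated in a few. HIST1H1C, which encodes linker histone H1.2 (chr6:26055787-26056428, minus strand, 1 exon block), had 93.2, 89.5, 9.50 and 12.5 RPKM. HIST1H2BK, an H2B gene known to give polyadenylated mRNA (chr6:27146418-27146798, minus strand, 1 exon block), had 104, 104, 25.6 and 26.3 RPKM. The models of both hold coding sequence only. They took 59.1% and 58.6% of the coding cluster counts in DU145, and 32.2% in each PC3 library. The next highest means were 6.17 RPKM for HIST2H2AA3 (H2A), 6.04 for HIST1H2AC (H2A), 4.96 for HIST1H4I (H4), 4.14 for HIST1H2BD (H2B), 3.59 for HIST3H2A (H2A) and 3.22 for HIST2H2AA4 (H2A). Of the 61 coding cluster genes, 13 had at least 200 counts over the 4 libraries: 1 of 5 for H1, 4 of 16 for H2A, 5 of 14 for H2B, 0 of 14 for H3 and 3 of 12 for H4. No H3 cluster gene summed to more than 98 counts. At the other end, 42 of the 70 cluster genes stayed under 20 counts in every library, and 11 of those had at most 3, a floor that equals 0.076 to 0.0897 CPM here. The 11 genes at that floor could not be measured at this depth, which does not show that they were silent. Small RNAs without a poly(A) tail were picked after their values were seen. Of these, RN7SK and RPPH1 had 678 to 956 and 1003 to 1296 counts. By contrast, RMRP had 10 to 20 counts and TERC had 2 to 12.

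H2A and H2B genes often stand head to head and share the DNA between their starts. In 11 such pairs, with 218 to 330 bases between them, the mean levels of partners differed from 1.06-fold to 235-fold. HIST1H2BK had a mean of 65.0 RPKM and its partner HIST1H2AH 0.276 RPKM, from 0, 2, 4 and 10 counts. HIST3H2A had 3.59 RPKM and HIST3H2BB 0.0352 RPKM, from 2, 4, 4 and 2 counts. The other 9 pairs were within 7.71-fold, and in HIST2H2BE and HIST2H2AC (0.583 and 0.618 RPKM) the ratio of means was 1.06. That near equality held only in the mean, because the order of the partners reversed between the lines. HIST2H2BE had 1.13, 0.900, 0.123 and 0.185 RPKM. HIST2H2AC had 0.270, 0.422, 0.613 and 1.17 RPKM, from 4, 6, 8 and 18 counts. The only pair in which both genes reached 200 counts was HIST1H2BC (2.18 RPKM) with HIST1H2AC (6.04 RPKM), which differed 2.77-fold. HIST1H2AC had 512, 562, 180 and 240 counts, and HIST1H2BC had 100, 66, 44 and 60. Partners were thus unequal in most pairs, and no test applies to ratios between genes. The table lists HIST1H2AH with 387 bases and HIST3H2BB with 2364 bases, so the small values also differ in how many bases were counted.

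**Figure D2:**
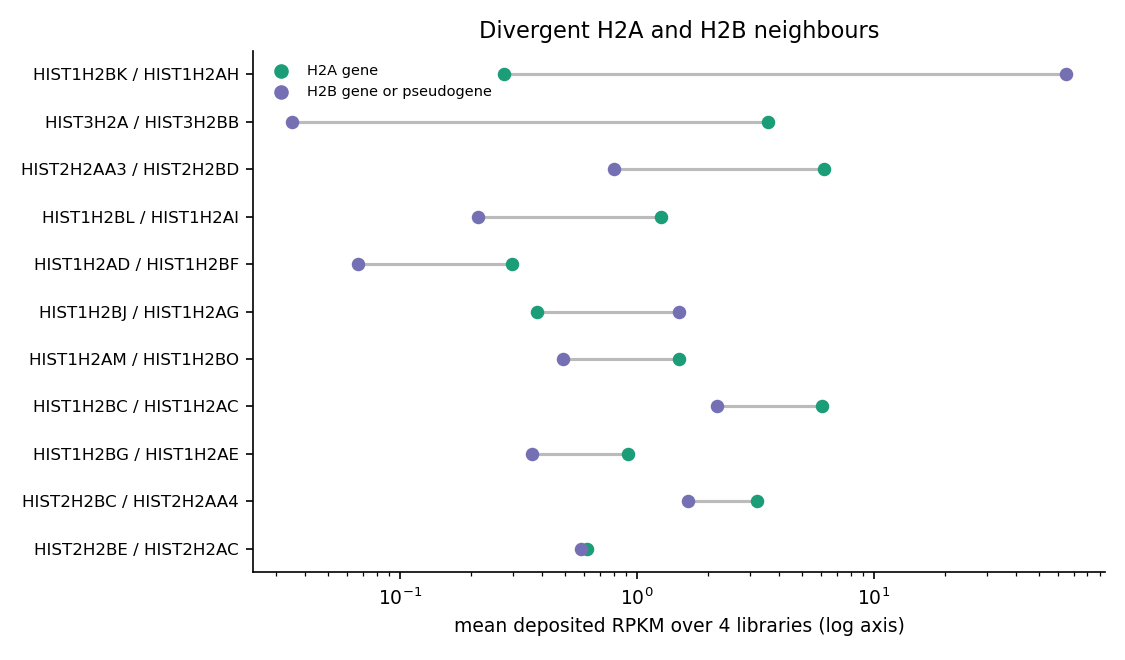
Mean deposited RPKM over 4 libraries (log axis) of the H2A gene (green) and the H2B gene or pseudogene (violet) of 11 head-to-head pairs, ordered by ratio. The HIST1H2BK and HIST1H2AH pair spans 65.0 to 0.276 RPKM, and the HIST2H2BE and HIST2H2AC pair nearly coincides in the mean. Within that pair HIST2H2BE is higher in both DU145 libraries and HIST2H2AC in both PC3 libraries.

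Between the lines, more cluster genes were called lower than higher in PC3, and more replacement genes were called higher than lower. The fit of all 4 libraries, with terms for line and plasmid, tested 40 of the 77 genes, 7 replacement and 33 cluster genes. By edgeR's quasi-likelihood test at a Benjamini-Hochberg adjusted p of 0.05, 27 of the 40 were called, 10 higher and 17 lower in PC3. The background is high: 66.0% of the 21731 genes tested were called between the lines, 33.1% higher and 32.9% lower, so the share called among histone genes is near that of all genes. The median log2 fold change was -0.56 over the 40 histone genes and 0.00 over all tested genes. Among the 33 cluster genes the median was -0.79, with 17 lower, 5 higher and 11 not called. Among the 7 replacement genes it was 0.53, with 5 higher and 2 not called. Of the 17 lower cluster genes 8 were HIST2 genes, while of 22 tested HIST1 genes 9 were lower, 4 higher and 9 not called. The 5 higher replacement genes include H2AFV, which was at the threshold. Genes past the filter are not all members, since 37 cluster genes were left untested for low counts.

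Of the replacement genes H3F3B differed most, at 5826, 5747, 15124 and 18653 counts, with both PC3 libraries above both DU145 libraries. Its log2 fold change was 1.64 ± 0.10 (SE; edgeR adjusted p = 1.64e-09), a 3.13-fold higher level in PC3. It shares 214 of its 6134 exon bases with UNK on the other strand, which had 827 to 1306 counts. H2AFX was higher by 0.58 ± 0.11, H1F0 by 0.57 ± 0.11 and H3F3A by 0.53 ± 0.10 on the log2 scale, with edgeR adjusted p of 0.000279, 0.000306 and 0.000271. H2AFV was at the threshold, 0.23 ± 0.10 with an edgeR adjusted p of 0.0487, and was not called under any of the 9 alternative settings. H2AFZ (0.08 ± 0.10) and H2AFY (-0.20 ± 0.10) were not called, and H2AFY was called lower with scaling by total counts (-0.27, adjusted p = 0.0171 by edgeR). H2AFY shares 4968 of its 17730 exon bases with C5orf66 on the other strand, which had 804 to 1324 counts. H2AFZ shares 223 of its 2303 exon bases with RP11-15B17.1 on the other strand, which had 1860 to 2251 counts.

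**Figure D3:**
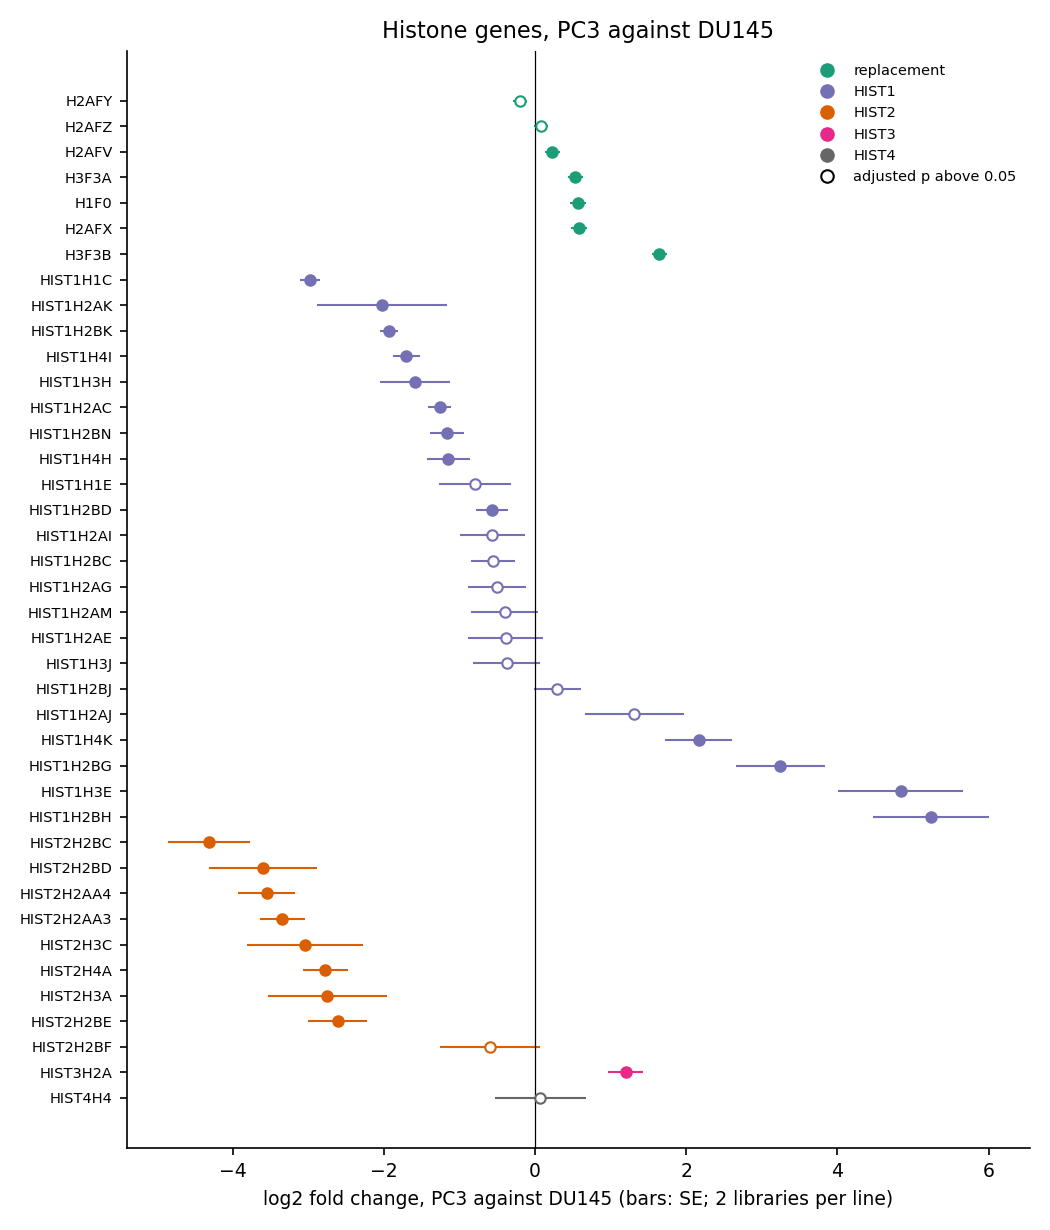
Log2 fold change of PC3 against DU145 for the 40 histone genes tested, with bars of 1 SE and 2 libraries per line. Filled points passed an adjusted p of 0.05; the HIST2 genes other than HIST2H2BF lie between -4.31 and -2.61, and the replacement genes between -0.20 and 1.64.

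HIST1H1C and HIST1H2BK, the most abundant cluster genes, were both lower in PC3. HIST1H1C had 2276, 2094, 204 and 318 counts, a 7.90-fold difference (log2 -2.98 ± 0.13, edgeR adjusted p = 6.19e-11). HIST1H2BK had 1508, 1444, 326 and 396 counts, a 3.81-fold difference (log2 -1.93 ± 0.12, edgeR adjusted p = 2.67e-09). The groups of neither gene overlap. HIST1H4I (-1.70 ± 0.18), HIST1H2AC (-1.26 ± 0.15), HIST1H2BN (-1.17 ± 0.23), HIST1H4H (-1.15 ± 0.29) and HIST1H2BD (-0.57 ± 0.21) were also called lower, with edgeR adjusted p from 1.02e-06 to 0.0287. DESeq2 did not call HIST1H4H or HIST1H2BD (adjusted p = 0.107 and 0.295). HIST1H2BC (-0.55 ± 0.29) and HIST1H2BJ (0.30 ± 0.31), both H2B genes, were not called. HIST1H2AK, an H2A gene called lower with 17, 10, 0 and 6 counts, passed the low-count filter only through DU145. Its call is therefore no separate support. HIST1H2AK lies wholly inside exon bases of HIST1H2BN on the other strand. The strand setting used in counting is not given, so whether reads of HIST1H2AK and HIST1H2BN were kept apart is unknown.

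A few HIST1 genes and HIST3H2A went the other way. HIST3H2A (chr1:228456979-228457873, minus strand) had 68, 82, 136 and 188 counts, a 2.29-fold higher level (log2 1.20 ± 0.23, edgeR adjusted p = 0.000304). HIST1H2BH, an H2B gene (chr6:26251651-26253710, plus strand), had 2, 0, 38 and 40 counts, and so was nearly undetected in DU145. The ratio of its PC3 to its DU145 sum was 41.8, with a 95% Clopper-Pearson interval of 11.2 to 352 from the deposited counts and of 7.08 to 1695 from halved counts. HIST1H3E, the H3 gene with the TCTC loop shown above (chr6:26224199-26227473, plus strand), had 0, 2, 28 and 32 counts. Its ratio was 32.2, with intervals of 8.53 to 272 and of 5.35 to 1313. The fit gave log2 fold changes of 5.23 ± 0.77 and 4.84 ± 0.83 (edgeR adjusted p = 2.00e-05 and 9.14e-05). Leaving out a library moved these between 4.45 and 8.31 for HIST1H2BH and between 3.84 and 8.00 for HIST1H3E, with the highest values where the contrast rested on the DU145 library with 0 counts. HIST1H2BH and HIST1H3E were named for at least 20 counts in both PC3 libraries and at most 3 in both of DU145. Large ratios were thus built into that choice, so their intervals and p-values are no separate support. Both genes passed the low-count filter only through PC3. HIST1H2BG (H2B; 2, 6, 30 and 44 counts) and HIST1H4K (H4; 16, 8, 40 and 62 counts) completed the 5 cluster genes called higher. HIST1H4K shares all of its 150-base windows with HIST1H4J, so reads cannot be told apart between them. HIST1H2BG and HIST1H4K were picked after their values were seen. HIST1H2BG, too, passed the low-count filter only through PC3, so its call is no separate support.

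The HIST2 block, which its tested genes span (chr1:149782689-149886652), was lower in PC3 at most of those genes. Of its 9 tested genes 8 were called lower, with a median log2 fold change of -3.05, and HIST2H2BF was not called (-0.60 ± 0.66; 10, 12, 3 and 11 counts). Of these 8, HIST2H2BC, HIST2H2BD, HIST2H3A and HIST2H3C had at most 4 counts in each PC3 library and passed the low-count filter only through DU145. Lower values in PC3 were close to built in for them, so their calls are no separate support. The median is the value of HIST2H3C. The 16 HIST2 genes summed to 20.4 and 20.3 CPM in DU145 and 2.69 and 3.32 CPM in PC3. Among those left untested for low counts, HIST2H2AC (4, 6, 8 and 18 counts) was higher in both PC3 libraries. So was HIST2H2BA (1, 2, 8 and 4 counts), whereas HIST2H3D (4, 8, 0 and 3 counts) was lower there. HIST2H2AA3 had 235, 226, 26 and 16 counts (log2 -3.34 ± 0.30, edgeR adjusted p = 1.34e-07). HIST2H2AA4 had 126, 125, 6 and 14 counts (log2 -3.55 ± 0.38, edgeR adjusted p = 9.39e-07). These are near-identical copies, in which 100% and 96.4% of 150-base windows recur in the other gene, so how reads were divided between them is unknown. Their sums were 361, 351, 32 and 30 counts. HIST2H4A (192, 161, 16 and 32 counts; log2 -2.77 ± 0.30) shares 92.2% of its windows with HIST2H4B and 173 exon bases with HIST2H3C on the other strand. HIST2H2BD, a pseudogene that stands head to head with HIST2H2AA3, had 30 and 25 counts against 1 and 3, a ratio of 12.8 in favour of DU145 with an interval of 4.73 to 48.7, or 2.69 to 44.7 with halved counts. Without the DU145 circ0003553 library or without that of PC3 its log2 value was -4.47, against -3.60 ± 0.71 with all. HIST2H2BD was named for at least 20 counts in both DU145 libraries and at most 3 in both of PC3. A large ratio was thus built into that choice. HIST2H2BC, HIST2H2BE, HIST2H3A and HIST2H3C were the others called, at -4.31, -2.61, -2.75 and -3.05; HIST2H3A and HIST2H3C share 100% of their windows and are 1 measurement in effect. DESeq2 called 6 of the 9 lower, and the fit restricted to genes that share no exon base called 5 of 6.

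The genes around that block were lower in PC3 too. With the middle of the gene within 250 kb of the block's ends, 10 other genes were tested, and 10 of 10 were called lower, at a median log2 fold change of -2.23. SV2A, a synaptic vesicle protein gene, had 504, 371, 10 and 12 counts (log2 -5.18 ± 0.27). BOLA1, a mitochondrial iron-sulfur protein gene that shares 27 exon bases with the untested HIST2H2AB, had 451, 419, 60 and 49 counts (-2.89 ± 0.21). SF3B4, a splicing factor gene, had 2338, 2211, 844 and 937 counts (-1.25 ± 0.11), and OTUD7B, a deubiquitinase gene, differed least (-0.49 ± 0.10). By contrast, 28 other tested genes in and around the HIST1 block (tested genes at chr6:26055787-27893149) had a median of 0.07, with 8 lower and 6 higher, where the 22 tested HIST1 genes had a median of -0.56, with 9 lower and 4 higher. Near HIST3H2A, 14 other genes were tested, with 1 lower, 4 higher and a median of 0.42. Neighbouring genes were named after their values were seen, and DNA copy number was not measured.

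**Figure D4:**
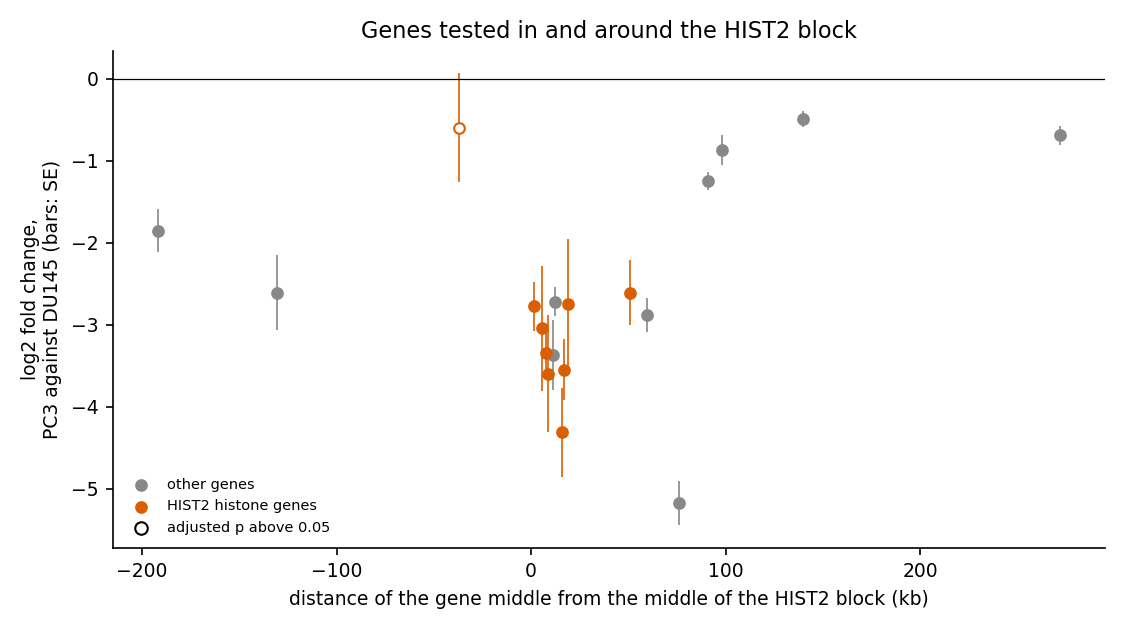
Log2 fold change of PC3 against DU145 (bars: SE) for genes tested in and around the HIST2 block, by distance of the gene's middle from the middle of the block in kb. All 19 points lie below 0. SV2A is lowest at -5.18, and the HIST2 genes lie between -4.31 and -2.61 except HIST2H2BF at -0.60.

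Between the plasmids no histone gene was called. The question was whether RNA levels differed between cells given the circ0003553 plasmid and cells given the control plasmid, with the line as the block. By edgeR's quasi-likelihood test 0 of the 40 tested histone genes passed an adjusted p of 0.05, against 0.465% of all 21731 genes (0.396% higher and 0.0690% lower). At an unadjusted p under 0.05 there were 2 histone genes with edgeR, 0 with DESeq2 and 3 with limma-voom. An unadjusted threshold of 0.05 lets a few of 40 genes pass without any plasmid difference, so these counts are not a result. The log2 fold change was above 0 for 21 of the 40 and below 0 for 19, with a median of 0.02, against 0.00 over all tested genes. With a background this low, 0 calls among 40 genes is close to the share over all genes.

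The 2 histone genes with an unadjusted p under 0.05 by edgeR were H1F0 and HIST1H1E. Both encode linker histones, and whether that family differs between the plasmids was not tested. H1F0 had 6546, 8380, 9122 and 11442 counts, with the control lower in each line. The ratio after TMM scaling was 1.37 in DU145 (95% Clopper-Pearson interval 1.33 to 1.42, counting error only) and 1.04 in PC3 (1.02 to 1.07). The fit gave 0.26 ± 0.11 (edgeR adjusted p = 0.492). HIST1H1E, the gene of H1.4 and picked after its values were seen, had 14, 42, 12 and 19 counts (1.18 ± 0.48, edgeR adjusted p = 0.480). HIST1H1C, also a linker histone gene, had a fitted value of 0.14 ± 0.13, from log2 ratios of -0.02 (DU145) and 0.37 (PC3). H3F3A (-0.21 ± 0.10), H2AFV (-0.19 ± 0.10) and H2AFZ (-0.14 ± 0.10) had lower values with circ0003553 in both lines, by at most 0.27 on the log2 scale, and were not called. H3F3B (0.06 ± 0.10), H2AFX (0.13 ± 0.11) and H2AFY (0.14 ± 0.10) had higher values in both lines and were not called either. Of the cluster genes with at least 200 counts, HIST3H2A had the highest fitted value (0.27 ± 0.23) and HIST1H2BJ the lowest (-0.30 ± 0.31). HIST1H2BN (0.25 ± 0.22), HIST1H2AC (0.20 ± 0.15) and HIST2H2AA4 (0.18 ± 0.31) lay above 0, and HIST1H2BC (-0.21 ± 0.29), HIST1H4I (-0.16 ± 0.18), HIST1H4H (-0.13 ± 0.28) and HIST2H2AA3 (-0.11 ± 0.26) below. With 1 library left out at a time, the value ran from -0.50 to 0.18 for HIST1H2BC and from -0.23 to 0.05 for HIST1H4H. For HIST2H2AA3 it ran from -0.96 to 0.05, so the direction of these genes differs between the lines. HIST2H2AA3 and HIST2H2AA4 are near-identical copies whose summed counts were 361, 351, 32 and 30. How reads were divided between them is unknown, so their separate directions cannot be read.

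**Figure D5:**
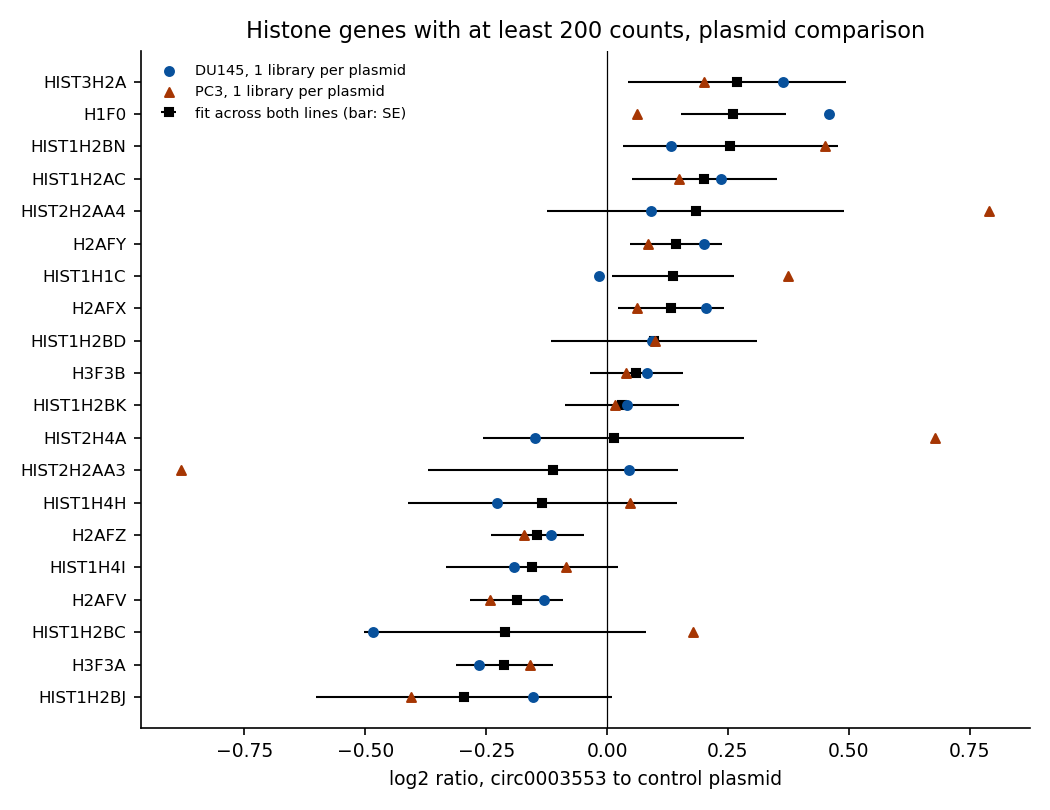
Log2 ratio of circ0003553 to control plasmid for the 20 histone genes with at least 200 counts, by line (1 library per plasmid) and from the fit across both lines (squares, bars of 1 SE). Fitted values run from -0.30 to 0.27, and the low-count HIST2H2AA3, HIST2H2AA4 and HIST2H4A spread most in PC3.

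Within a line there is 1 library per plasmid, so ratios have no test. In DU145, 1 of 29 histone genes with at least 50 counts was 2-fold higher and none 2-fold lower, against 1.03% and 0.992% of all genes with such counts. That gene was HIST1H1E, at a ratio of 3.22 (1.73 to 6.39, or 1.32 to 8.97 with halved counts). In PC3, 0 of 22 passed in either direction, against 0.824% higher and 0.334% lower of all genes. With at least 20 counts, the H2A gene HIST1H2AE passed in PC3, with 6 and 24 counts and a ratio of 3.33 (1.33 to 9.96, or 0.899 to 18.4 with halved counts). Whether the plasmid difference depends on the line was not testable, since 4 libraries cannot carry that term and an error estimate.

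The other genes of the pathway were read from 4 lists. Of 22 genes for transcription, 3′ processing and decay of histone mRNA, all tested, 6 were higher, 10 lower and 6 not called in PC3, at a median of -0.14. In this list and in those of chaperones and S phase genes below, the share called is near the 66.0% of all genes tested. ERI1, an exonuclease that trims the stem-loop end, was lowest at -3.08 ± 0.11, with 3580, 3419, 368 and 404 counts. SLBP had 8156, 7220, 3021 and 3205 counts (-1.20 ± 0.10). CTIF (-1.58), CCNE1 (-1.09), MIF4GD (-0.97) and CPSF2 (-0.78) were lower as well. LSM10 (1.72) and LSM11 (0.94), subunits of the U7 snRNP, and ZNF473 (1.64), which acts with it, were higher. CCNE2 (0.63), UPF1 (0.75) and FIP1L1 (0.82) were higher as well. NPAT, the cyclin E-Cdk2 target that drives histone gene transcription and a gene outside the naming rule, was not called (0.18 ± 0.15). Of 22 chaperones and exchange factors 8 were higher, 7 lower and 7 not called. VPS72 (-1.74 ± 0.10) and ANP32E (-1.54 ± 0.10), which load and remove H2A.Z, were lowest, while H2AFZ, which encodes it, was not called. Of 5 tested variant genes outside the rule, H3F3C was higher (1.92 ± 0.22) and H2AFY2 (-2.44 ± 0.13) and H2AFJ (-0.83 ± 0.11) lower. Of 15 S phase genes 3 were higher (POLA1, RRM2 and E2F1, 0.33 to 0.57), 7 lower and 5 not called, with MCM5 lowest at -1.36 ± 0.11. For the plasmids no gene of the 4 lists was called by edgeR, and at an adjusted p of 0.283 RNU7-1, the U7 RNA, came closest (-0.97 ± 0.29; 87, 36, 75 and 52 counts). How far the lower S phase and processing genes moved with the cluster histones was not tested.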

How the data were processed

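The authors deposited whole-number read counts per gene for 4 libraries, and RPKM values of the same genes, which equal the counts divided by model length and library total. Per the submitters' processing notes, Trimmomatic 0.36, featureCounts, Subread 1.5.1, edgeR 3.12.1 and build hg38 were used; for the aligner, strand setting and handling of molecular identifiers the answer is: not given in the sources used here.

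Counts were tested as deposited with edgeR 4.0.16 (R 4.3.3), using its quasi-likelihood test on a model with a line term and a plasmid term after TMM scaling (factors 0.967 to 1.04) and a low-count filter by plasmid, with Benjamini-Hochberg adjustment over 21731 genes. With 1 residual degree of freedom left, moderation across genes supplied a further 13.4. The line pairs the libraries, per the labels. Ratios within a line used a prior count of 2 and at least 50 counts. The script was tested on simulated data. DESeq2 1.42.0, limma 3.58.1 and other settings were tried as alternatives. Of the 77 gene models, 75 had the span of GENCODE release 29 and 20 shared exon bases with another gene.

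The genes, lists and tests were chosen with earlier results of these data known. Named genes are all replacement genes, the 15 highest mean RPKM, the 8 highest and 8 lowest plasmid values and the 12 highest and 12 lowest called line values among genes with at least 200 counts, genes 2-fold apart within a line at 200 counts, genes with at least 20 counts in 1 line and at most 3 in the other, called pathway genes (up to 6 per direction), gene copies and head-to-head pairs; others are marked in the text, except HIST2 genes, given to complete the block.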

Additional observations from a re-analysis of the deposited data

How the results depend on the processing

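The count of 0 histone genes called between plasmids held under 9 alternatives, with 0 to 3 genes at an unadjusted p under 0.05. The 101 genes called over all genes became 62 with DESeq2, 26 with limma-voom, 53 with legacy dispersions, 9 with no low-count filter, 47 among genes sharing no exon base (fewer genes tested) and, without the replicate block (the line term left out), 0, with 26 at an unadjusted p under 0.05. Between lines, 19 to 27 histone genes were called under the alternatives, all in the direction of the values reported; over all genes the 14332 calls became 7051 among genes sharing no exon base, of 10827 tested. Within DU145 the 1 gene past 2-fold became 0 with halved counts, since HIST1H1E then falls under 50 counts, and within PC3 the 0 became 1 with at least 20 counts. H2AFV lost its call between lines under 9 alternatives (log2 0.16 to 0.23). The cause of the other shifts was not tested. Leaving out 1 library leaves no residual degree of freedom, so counts of calls have no such value; of 23 named genes, 7 to 9 values between lines and 4 to 7 between plasmids moved by more than 1 SE, depending on the library, and none between lines changed sign. Depth limits the 42 cluster genes under 20 counts in every library.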
